A study of Mus musculus with 5 samples.

Results

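The members described here are 34 immediate-early and heat shock genes, taken by symbol from the 18051 genes of a read count table. All 34 were found. They fall into 8 families: AP-1 (8 genes), EGR (3), IER (3), DUSP (5), NR4A (3), KLF (2), the Zfp36 family with Btg1 (4), and heat shock (6). The measured material was dendritic cell RNA from the thymus of C57BL/6J mice aged 6 to 8 weeks. Thymi had been digested and pooled, and the sort kept cells with surface CD45, CD11c and MHC class II. The irradiated group (TBI, 3 libraries) came from mice given total body irradiation 4 days before harvest, and the untreated group (2 libraries) came from mice without irradiation. The labels do not say whether replicates came from separate pools of mice, so p-values measure the spread between these libraries, which may be technical. The radiation dose is not given in the sources used here.

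Immediate-early genes are switched on within minutes of a stimulus without new protein synthesis, mostly through MAP kinase signalling, serum response factor and CREB. AP-1 proteins and EGR zinc fingers carry the signal to further genes, dual-specificity phosphatases remove phosphate from MAP kinases, and Zfp36 proteins shorten the life of AU-rich mRNAs, their own included. Heat shock genes answer to a different switch, heat shock factor 1, which binds repeats of GAA and TTC when unfolded protein builds up. In dendritic cells and macrophages these genes respond to pathogen sensing, cytokines and adhesion.

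Promoter sequences are shown for 6 members as examples of the motifs searched, where a match is a description and not a site shown to be bound: a CArG box (CC, 6 bases of A or T, then GG, bound by serum response factor) in Egr2, Dusp5 and Zfp36, a cyclic AMP response element (TGACGTCA, bound by CREB and ATF proteins) in Dusp1, and a heat shock element of 2 units (GAANNTTC) in the near-identical Hspa1a and Hspa1b. Each line gives the 150 bases before a RefSeq transcript start on GRCm38.p6, 5′ to 3′ on the gene's strand, and capitals mark matches to a searched motif.
Egr2: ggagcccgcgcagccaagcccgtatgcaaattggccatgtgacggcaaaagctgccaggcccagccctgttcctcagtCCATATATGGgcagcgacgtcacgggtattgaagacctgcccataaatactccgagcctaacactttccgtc
Dusp1: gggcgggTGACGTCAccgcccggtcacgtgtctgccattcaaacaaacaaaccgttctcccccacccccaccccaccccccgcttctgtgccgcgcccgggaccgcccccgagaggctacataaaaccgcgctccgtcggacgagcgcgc
Dusp5: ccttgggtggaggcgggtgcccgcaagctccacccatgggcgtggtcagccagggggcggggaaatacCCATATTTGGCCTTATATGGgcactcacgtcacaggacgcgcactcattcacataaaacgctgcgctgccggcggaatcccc
Zfp36: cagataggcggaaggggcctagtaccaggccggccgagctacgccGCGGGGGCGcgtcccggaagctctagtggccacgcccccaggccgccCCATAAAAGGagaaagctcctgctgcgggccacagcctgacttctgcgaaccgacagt
Hspa1a: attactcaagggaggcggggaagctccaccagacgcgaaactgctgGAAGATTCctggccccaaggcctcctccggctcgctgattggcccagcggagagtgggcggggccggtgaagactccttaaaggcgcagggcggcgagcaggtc
Hspa1b: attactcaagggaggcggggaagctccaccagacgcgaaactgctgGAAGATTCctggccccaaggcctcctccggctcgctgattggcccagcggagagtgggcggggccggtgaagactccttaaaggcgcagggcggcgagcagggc
The windows are chr10:67537719-67537868 (plus strand) for Egr2, chr17:26508473-26508622 (minus) for Dusp1, chr19:53528995-53529144 (plus) for Dusp5, chr7:28379229-28379378 (minus) for Zfp36, chr17:34972157-34972306 (minus) for Hspa1a and chr17:34959239-34959388 (minus) for Hspa1b. In Zfp36 the first run of capitals is an EGR site (GCGNGGGCG) and the second the CArG box. Dusp5 carries 2 CArG boxes end to end. The Hspa1a and Hspa1b windows are identical at 149 of 150 bases.

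RefSeq windows from 250 bases before to 50 after the start were found for 27 of the 34 members, and both strands were searched. Egr1, Egr3, Ier2, Dusp4, Zfp36l2, Hspa8 and Hsp90aa1 had no window and were not searched. Sites farther from the start were not searched in any member, so a member not named below may still have a site. Percentages below are shares of windows, while a member was counted if any of its windows matched. Some members have several windows, so the percentages and the member counts are not on the same scale. The CArG box was in 1.63% of 32851 windows of all genes and in windows of 3 members (Egr2, Dusp5, Zfp36). The cyclic AMP response element was in 1.79% of windows and in 2 members (Maff, Dusp1), and the EGR site in 5.55% and in 8 members (Fosb, Fosl2, Maff, Dusp2, Nr4a1, Nr4a2, Klf2, Zfp36). The 2-unit heat shock element was in 7.86% of windows and in 5 members (Fosl2, Jun, Hspa1a, Hspa1b, Hsph1), and a 3-unit form, GAANNTTCNNGAA, was in 0.603% and in Hsph1, where it contains the 2-unit match. The other 2-unit order, TTCNNGAA, was not searched on its own. The letters TGACTCA (AP-1) and AAAGGTCA (NR4A) were in 5.2% and 1.51% of windows and in none of the 27 members' windows, and that says only that these letters are not there.

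Total counts were 7549053, 8428589 and 7940442 in the TBI libraries and 7346330 and 7227000 in the untreated libraries, so that 1 count equalled 0.124 to 0.145 CPM (read counts relative to library size, with sizes scaled by edgeR's TMM). The first principal component, with 72.7% of the variance, separated the groups, and the second (14.9%) set TBI replicate 1, at a score of -48.8, away from TBI replicates 2 and 3, at 34.5 and 21.6. Of 8 dendritic cell markers 7 were lower in TBI and Cd74 did not pass, with a summed level of 37830 to 53810 CPM in TBI libraries and 56510 to 57350 in untreated libraries. All 10 macrophage markers were higher, summing to 23270 to 25650 CPM in TBI libraries and 2663 to 3227 CPM in untreated libraries. All 6 plasmacytoid markers were lower (281.4 to 387.2 CPM in TBI, 2683 to 2728 in untreated) and all 5 natural killer markers were higher (637.7 to 737.3 CPM in TBI, 26.32 to 28.1 in untreated). No marker of these 4 lists was at 0 in either group. Of 6 monocyte markers 4 were higher and 2 lower, with a sum of 29410 to 34870 CPM in TBI libraries and 2560 to 3075 CPM in untreated libraries. All 4 B cell markers were higher (243.9 to 380.7 CPM in TBI, 68.61 to 91.19 in untreated), 5 of 6 type 1 dendritic cell markers were lower (233 to 256.8 CPM in TBI, 953.1 to 976.4 in untreated), and 5 of 8 T cell markers were lower (654.9 to 783.8 CPM in TBI, 1741 to 1920 in untreated). Among type 2 dendritic cell markers, of 5 tested 3 were higher (Itgam, Cd209a and Mgl2) and 0 lower. Sirpa and Irf4 did not pass. The 6 listed summed to 2665 to 3189 CPM in TBI libraries and 973.8 to 1077 CPM in untreated libraries. Of 6 markers of mature CCR7+ dendritic cells 1 was higher and 2 were lower (3758 to 4105 CPM in TBI, 2632 to 3103 in untreated). In bulk libraries fewer cells of a type and less RNA per cell cannot be told apart. The part that these marker shifts, or the digestion and sorting of the tissue, have in the values below was not tested.

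The immediate-early families did not move as a block. Of the 34 members, all of which passed the filter on low counts, 12 were higher in TBI, 3 were lower and 19 did not pass (edgeR quasi-likelihood test, Benjamini-Hochberg adjusted p under 0.05 over 12046 genes). Over all tested genes 13.3% were called higher and 9.79% lower. The members' median log2 fold change was 0.10, with a range of -1.47 to 2.05, against a median of -0.01 over all tested genes. In 14 members every TBI library lay above both untreated libraries, as in 27.8% of all tested genes, and in 8 every TBI library lay below, as in 28.3%. AP-1, EGR and IER genes made up 9 of the 12 higher members, and the 3 lower ones were Dusp4, Nr4a2 and Hsph1.

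**Figure D1:**
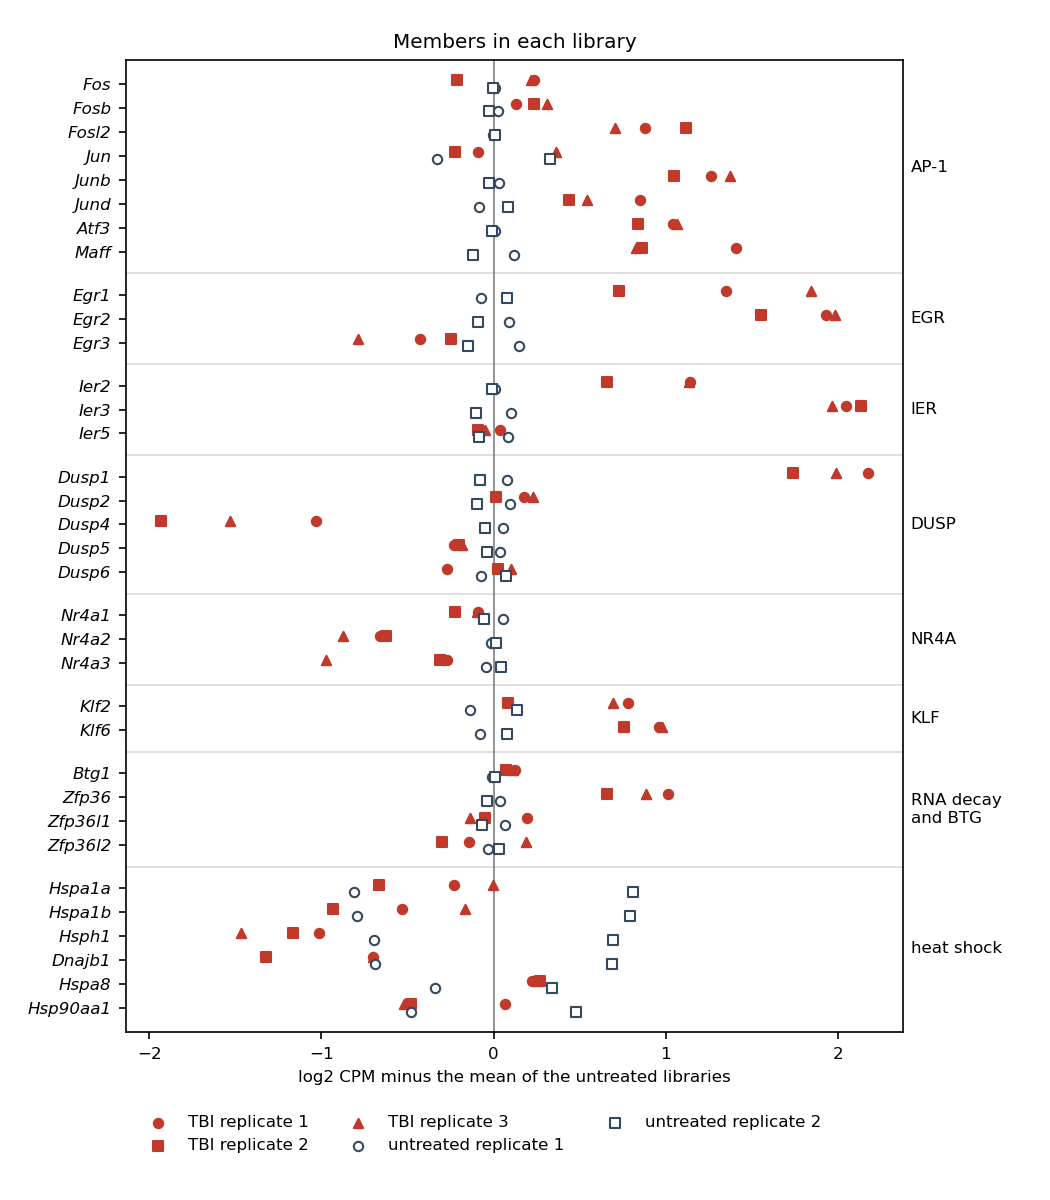
Each point is 1 member in 1 library, as log2 CPM minus the mean log2 CPM of the untreated libraries (horizontal axis), with members grouped by family down the page, filled red symbols for the 3 TBI libraries and open blue symbols for the 2 untreated ones. The untreated libraries lie close together for most members and far apart for the heat shock genes, where untreated replicate 2 is the higher one in all 6.

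AP-1 is a dimer of a FOS-type and a JUN-type protein, and the family's higher members in TBI cells were Junb, Jund, Fosl2, Atf3 and Maff, with no lower member by edgeR, DESeq2 or limma-voom (0 at an unadjusted p under 0.05). Of the 8 genes 5 passed as higher, and the family median was 0.77. Junb, a JUN protein with weaker transactivation than Jun, had 1814, 1564 and 1961 CPM in TBI libraries, against 772 and 741 CPM in untreated libraries. It was 2.35-fold higher (log2 1.23 ± 0.13 SE, edgeR adjusted p = 0.00032), and per kilobase of exon it stood at percentile 99.6 of tested genes in TBI cells and at percentile 99.2 in untreated cells. Fos, its classical partner, had 1113, 815 and 1099 CPM in TBI libraries and 949 and 942 CPM in untreated libraries, and these groups overlapped (log2 0.09 ± 0.15, edgeR adjusted p = 0.704). Jun overlapped too, with 381, 348 and 523 CPM in TBI libraries and 324 and 510.4 CPM in untreated libraries.

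Atf3, a stress-induced repressor that pairs with JUN proteins, had 963, 834 and 977 CPM in TBI libraries and 470.3 and 464 CPM in untreated libraries. All 3 TBI libraries lay clearly above both untreated ones, a 1.98-fold difference (log2 0.99 ± 0.13, edgeR adjusted p = 0.000833). Fosl2, a FOS protein without the strong activation domain of Fos, had 129.9, 153 and 115 CPM in TBI libraries and 70.2 and 70.8 CPM in untreated libraries (log2 0.91 ± 0.16, edgeR adjusted p = 0.00479). Maff, a small MAF protein that lacks an activation domain, had 40.5, 27.8 and 27.1 CPM in TBI libraries and 16.4 and 13.9 CPM in untreated libraries (log2 1.06 ± 0.26, edgeR adjusted p = 0.0192). The untreated libraries were nearly equal for these genes, and the groups did not overlap.

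Jund, the JUN protein that is present in most resting cells, had 971, 732 and 784 CPM in TBI libraries and 509 and 571 CPM in untreated libraries (log2 0.62 ± 0.15, edgeR adjusted p = 0.021). An antisense gene of the GRCm38 annotation, Gm11175, shares 48.3% of Jund's 50-base exon windows and is not a row of the table, so without a stated strand setting their reads cannot be told apart. Fosb had 143, 154 and 162 CPM in TBI libraries and 133 and 128 CPM in untreated libraries, which did not overlap, but it did not pass (log2 0.23 ± 0.13, edgeR adjusted p = 0.25). With either untreated library left out, the lone one being assumed to vary like the TBI libraries, Fosl2 (adjusted p = 0.0651 and 0.0626 without untreated replicate 1 and 2), Jund (0.189 and 0.0886) and Maff (0.0984 and 0.187) were not called by edgeR.

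The EGR zinc fingers divided. Egr1 and Egr2 were higher in TBI cells and Egr3 was not called. Egr2, a factor of macrophages and of tolerant lymphocytes, had 386, 297 and 401 CPM in TBI libraries and 108 and 95.1 CPM in untreated libraries, 3.57-fold higher (log2 1.84 ± 0.17, edgeR adjusted p = 0.000159). The lowest TBI library was far above the highest untreated one. Egr1, the best known of the family, had 582, 378 and 818 CPM in TBI libraries and 216 and 240.1 CPM in untreated libraries (2.6-fold, log2 1.38 ± 0.29, edgeR adjusted p = 0.01). TBI libraries varied more among themselves for Egr1 than for Egr2, and without untreated replicate 1 its edgeR adjusted p was 0.0639. Egr3 had 19.5, 22.2 and 15.2 CPM in TBI libraries, all below the 29.3 and 23.8 CPM of untreated libraries (log2 -0.48 ± 0.24, edgeR adjusted p = 0.184).

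Of the IER genes, which encode small immediate-early proteins, Ier2 and Ier3 were higher in TBI cells and Ier5 did not pass. Ier3, a regulator of survival and NF-kB signalling, had 221, 235 and 208 CPM in TBI libraries and 57.1 and 49.6 CPM in untreated libraries. It was 4.15-fold higher (log2 2.05 ± 0.15, edgeR adjusted p = 3.4e-05). Ier2, a nuclear protein, had 509, 364 and 506 CPM in TBI libraries and 232 and 229 CPM in untreated libraries (log2 0.99 ± 0.17, edgeR adjusted p = 0.0041). Ier5, a co-activator of heat shock factor 1, had 346, 317 and 326 CPM in TBI libraries and 358 and 318 CPM in untreated libraries, and the groups overlapped (log2 -0.04 ± 0.13).

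The DUSP phosphatases, which feed back on MAP kinases, went in opposite directions: Dusp1 was higher in TBI cells, Dusp4 was lower, and Dusp2, Dusp5 and Dusp6 did not pass. Dusp1, a nuclear phosphatase that prefers p38 and JNK and limits cytokine production in macrophages, had 2363, 1748 and 2078 CPM in TBI libraries and 553 and 496 CPM in untreated libraries. It was 3.93-fold higher (log2 1.98 ± 0.16, edgeR adjusted p = 6.18e-05), and its groups lay far apart. Dusp4, also nuclear, had 16.8, 8.87 and 11.8 CPM in TBI libraries and 35.8 and 33.3 CPM in untreated libraries (0.36-fold, log2 -1.47 ± 0.28, edgeR adjusted p = 0.0061). It was lower in all 3 TBI libraries, at a much lower level than Dusp1, and its edgeR adjusted p was 0.0525 without untreated replicate 1.

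Dusp6, a cytoplasmic phosphatase of ERK, had 45.4, 56.0 and 58.8 CPM in TBI libraries and 52.3 and 57.7 CPM in untreated libraries (log2 -0.04 ± 0.18). Dusp5, its nuclear relative, whose window above holds 2 CArG boxes, had 227, 232 and 235 CPM in TBI libraries and 273 and 259.9 CPM in untreated libraries. The Dusp5 groups did not overlap, but the difference of log2 -0.21 ± 0.12 did not pass (edgeR adjusted p = 0.254), and 20.5% of its exon windows are shared with an overlapping antisense gene, AC137853.2, that is not in the table. Dusp2, an immune cell phosphatase, had 141, 126 and 146 CPM in TBI libraries and 133 and 117 CPM in untreated libraries (log2 0.14 ± 0.14), which overlapped.

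None of the NR4A orphan nuclear receptors was called higher by edgeR, DESeq2 or limma-voom (0 at an unadjusted p under 0.05). All 3 had every TBI library below both untreated libraries, as had 28.3% of all tested genes, and of these 3 only Nr4a2 passed. Nr4a2 had 229.9, 236 and 198 CPM in TBI libraries and 359.8 and 368 CPM in untreated libraries (0.608-fold, log2 -0.72 ± 0.13, edgeR adjusted p = 0.00504), and its edgeR adjusted p was 0.0568 and 0.0698 without untreated replicate 1 and 2. Nr4a1, a receptor needed for a class of patrolling monocytes and an early reporter of antigen receptor signalling, had 968, 882 and 964 CPM in TBI libraries and 1070.5 and 992 CPM in untreated libraries (log2 -0.14 ± 0.11, edgeR adjusted p = 0.437). Nr4a3, which takes part in dendritic cell migration, had 62.8, 61.1 and 38.4 CPM in TBI libraries and 73.6 and 78.1 CPM in untreated libraries (log2 -0.49 ± 0.22, edgeR adjusted p = 0.159). Scaled by library size alone, which shifts the median of all genes to -0.23, Nr4a1 and Nr4a3 were called lower too.

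**Figure D2:**
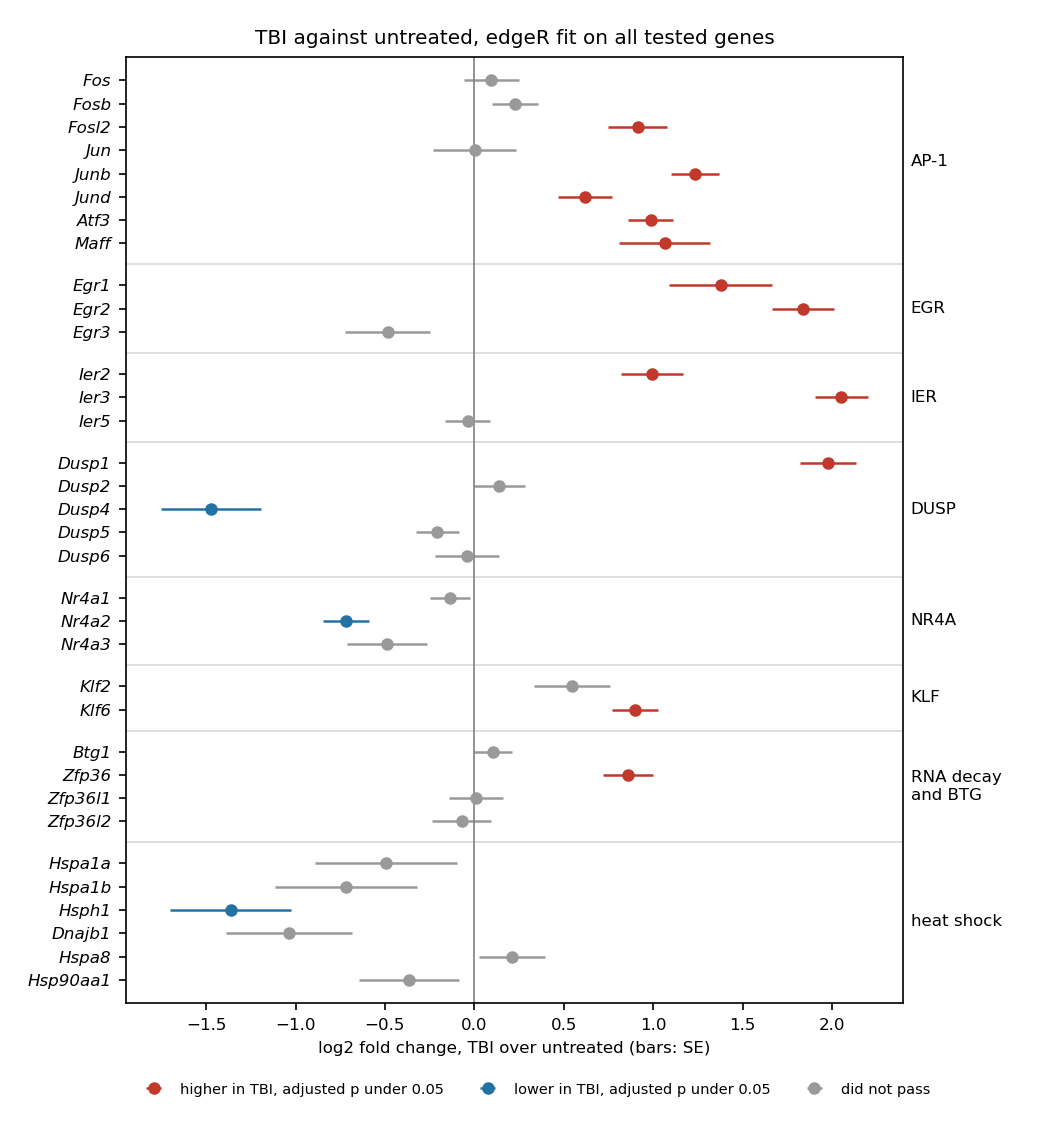
Points are log2 fold changes of TBI over untreated from the edgeR fit and bars their standard errors, with members grouped by family down the page and colour giving the call at an adjusted p under 0.05. The higher calls lie in 6 families, from Jund at 0.62 to Ier3 at 2.05, and the lower calls are Dusp4, Nr4a2 and Hsph1.

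The KLF zinc fingers and the mRNA decay genes held 1 higher member each. Klf6, a pro-inflammatory factor of myeloid cells, had 1131, 982 and 1145 CPM in TBI libraries and 549.7 and 614 CPM in untreated libraries (1.87-fold, log2 0.90 ± 0.13, edgeR adjusted p = 0.00151). Klf2, associated with quiescence, had 401, 247 and 377 CPM in TBI libraries and 212 and 256 CPM in untreated libraries. TBI replicate 2 lay between the untreated libraries, and Klf2 did not pass (log2 0.55 ± 0.21, edgeR adjusted p = 0.106).

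Zfp36 (tristetraprolin), which binds AU-rich elements and recruits the CCR4-NOT deadenylase, had 1367, 1067 and 1249.7 CPM in TBI libraries and 694 and 659.5 CPM in untreated libraries (1.81-fold, log2 0.86 ± 0.14, edgeR adjusted p = 0.00266). All 3 TBI libraries were above both untreated ones. Its paralogs did not pass. Zfp36l1 had 138, 116 and 109 CPM in TBI libraries and 126 and 115 CPM in untreated libraries (log2 0.01 ± 0.15). Of its exon windows 54.4% are shared with other genes, 51.3% with the antisense gene Gm26669. Zfp36l2 had 154, 138 and 194 CPM in TBI libraries and 166 and 174 CPM in untreated libraries (log2 -0.07 ± 0.17). Btg1, an antiproliferative partner of the deadenylase, had 988, 955 and 983 CPM in TBI libraries and 902 and 914 CPM in untreated libraries, which did not overlap but did not pass (log2 0.10 ± 0.11, edgeR adjusted p = 0.535).

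Ratios between 2 members within a library do not depend on the scaling. Egr2 counts over Nr4a1 counts were 0.399, 0.337 and 0.416 in TBI libraries and 0.1 and 0.0959 in untreated libraries. Dusp1 over Dusp4 was 141, 197 and 177 in TBI libraries and 15.4 and 14.9 in untreated libraries. Junb over Fos was 1.63, 1.92 and 1.78 in TBI libraries and 0.813 and 0.787 in untreated libraries, so Junb had more reads than Fos in all 3 TBI libraries and fewer in both untreated ones. Ier3 over Ier5 was 0.638, 0.742 and 0.639 in TBI libraries and 0.159 and 0.156 in untreated libraries. Each of these pairs set a gene called higher over one called lower or not called, so their separation between the groups adds no support to the calls. Other pairs overlapped, such as Hspa1a over Hspa8, with 0.264, 0.189 and 0.303 in TBI libraries and 0.261 and 0.503 in untreated libraries. With 3 libraries against 2 an exact permutation test cannot give a two-sided p below 0.1, so none is quoted.

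The heat shock genes were set apart by a difference between the 2 untreated libraries, and which of these is the unusual one cannot be told. Their summed level was 3868.6, 3360.1 and 3926.7 CPM in TBI libraries and 2966.7 and 6636.3 CPM in untreated replicates 1 and 2, so the TBI libraries lay between the untreated ones. Of the 6 genes Hsph1 was called lower, and none was called higher by edgeR, DESeq2 or limma-voom (0 at an unadjusted p under 0.05). Hsph1 (HSP110, a nucleotide exchange factor for HSP70) had 207, 186 and 151 CPM in TBI libraries and 259 and 675 CPM in untreated libraries (0.389-fold, log2 -1.36 ± 0.34, edgeR adjusted p = 0.0215). All 3 TBI libraries were below both untreated ones, but the untreated pair differed more between themselves than the lower of them differed from TBI.

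Hspa1a and Hspa1b encode the inducible HSP70. Hspa1a had 471, 348 and 551 CPM in TBI libraries and 315 and 971 CPM in untreated libraries (log2 -0.49 ± 0.40), and Hspa1b had 514, 389.8 and 663 CPM in TBI libraries and 429 and 1289 CPM in untreated libraries (log2 -0.72 ± 0.40). Their exon windows are shared at 66.3% and 62.3%, mostly with each other, so how the authors' counting split their reads is uncertain. Dnajb1 (HSP40), the co-chaperone of inducible HSP70, had 451, 294 and 452 CPM in TBI libraries and 455 and 1183 CPM in untreated libraries (log2 -1.04 ± 0.35, edgeR adjusted p = 0.0697).

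Hspa8 (HSC70), the heat shock member with the highest level per kilobase, had 1783, 1839.8 and 1815 CPM in TBI libraries and 1206 and 1929 CPM in untreated libraries (log2 0.21 ± 0.18). Hsp90aa1, the inducible HSP90, had 442, 303 and 295 CPM in TBI libraries and 304 and 589 CPM in untreated libraries (log2 -0.36 ± 0.28). Both overlapped between the groups, and 39.4% and 47.5% of their exon windows occur elsewhere in annotated transcripts, mostly in pseudogenes.

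**Figure D3:**
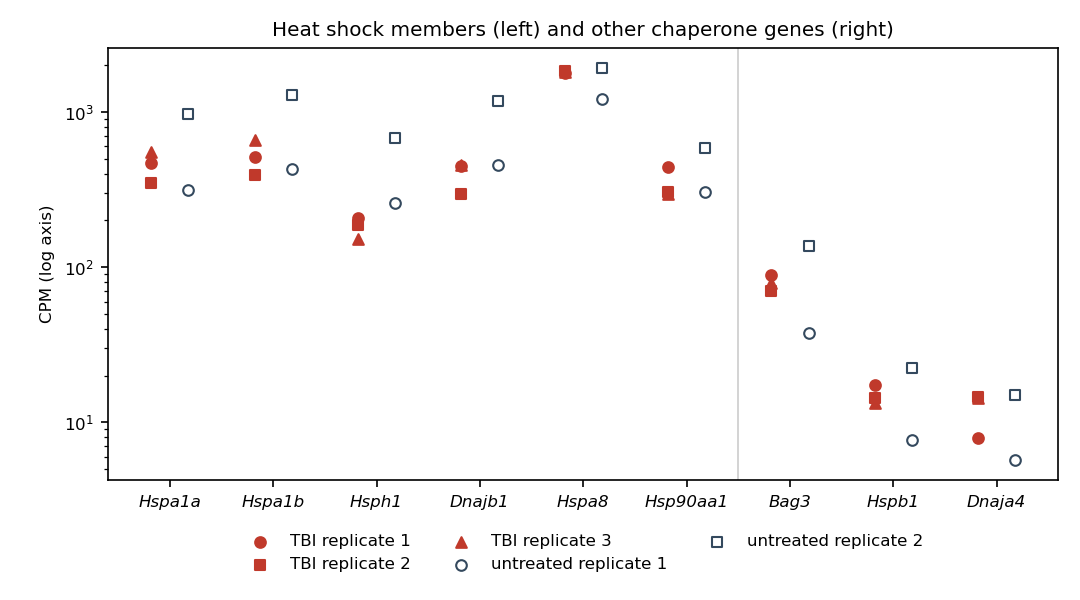
CPM on a log axis for the 6 heat shock members (left of the line) and 3 further chaperone genes (right), in 3 TBI libraries (filled red) and 2 untreated libraries (open blue). Untreated replicate 2 is the highest of the 5 libraries for all 9 genes, for example 1289 CPM for Hspa1b against 429 CPM in untreated replicate 1. The 3 further genes were chosen after their values were seen, so they add no support. Not all genes of their list share this order. Dnaja1, for example, had 435 CPM in TBI replicate 1 and 381 CPM in untreated replicate 2.

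Untreated replicate 2 over untreated replicate 1 was 1.6 to 3.09 for the 6 heat shock members (median 2.6). For the other 28 members it was 0.813 to 1.58, and only Jun, at 1.58, reached 1.5. Among the 8605 genes with a mean of at least 10 CPM in untreated libraries, 86 (0.999%) reached 1.5, and Hspa1a, Hspa1b, Hsph1 and Dnajb1 ranked 8, 9, 13 and 14. Of 38 such genes of a wider list of heat shock factors and chaperones, 9 reached it. These included Bag3 (rank 7), a co-chaperone, and Hspb1 (rank 10), a small heat shock protein, both named after their values were seen. The untreated libraries thus differed for heat-inducible chaperones and little for the other members.

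Which untreated library was used decided the heat shock calls. Without untreated replicate 1, 4 of the 6 were called lower by edgeR: Hsph1 (log2 -1.90, adjusted p = 0.000484), Dnajb1 (log2 -1.57, adjusted p = 0.00302), Hspa1b (log2 -1.30, adjusted p = 0.0105) and Hspa1a (log2 -1.09, adjusted p = 0.02). Without untreated replicate 2 none was called, and the values were -0.51 for Hsph1 (adjusted p = 0.254), -0.19 for Dnajb1, 0.28 for Hspa1b and 0.54 for Hspa1a. Hsph1 was also not called by edgeR without TBI replicate 2 (adjusted p = 0.0748) or 3 (adjusted p = 0.0823). No direction for the heat shock group as a whole can be read from these libraries.

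Genes around these families were read from 8 lists, beside shares over all tested genes of 13.3% called higher and 9.79% called lower. The counts for other DUSPs and the higher calls among MAP kinase cascade genes, given below, were near these shares. Those of the heat shock factor and chaperone list were under them. Of 18 tested AP-1 relatives 7 were higher and none lower, with a median of 0.62. As lower, 2 had an unadjusted p under 0.05 by edgeR, and DESeq2 and limma-voom called none. Lower calls appeared with library size alone (2), with a block for the replicate number (1) and without TBI replicate 1 (2). Among the higher relatives with the smallest p was Cebpb (log2 2.97 ± 0.15), a bZIP factor of macrophages. Others were Maf (3.30 ± 0.35), a large MAF protein, and Batf (1.14 ± 0.17), a partner of JUN proteins. Cebpb had 1423, 1287 and 1155 CPM in TBI libraries and 161 and 169 CPM in untreated libraries. The shifts of macrophage and other cell type markers are given above, and their part was not tested.

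Of 36 tested further immediate-early genes 23 were higher and 2, Sik1 and Trib1, lower, with a median of 0.78. Socs3, an inhibitor of cytokine signalling, had 543, 549 and 626 CPM in TBI libraries and 197 and 163 CPM in untreated libraries (log2 1.67 ± 0.15, edgeR adjusted p = 0.000109). Gadd45g (1.67 ± 0.19) and Gadd45b (1.15 ± 0.15), stress sensors upstream of p38, and Nfkbia (0.99 ± 0.13), the NF-kB inhibitor, were higher too. The count of higher genes was 10 without either untreated library, and of the lower calls none was made without untreated replicate 1 and 1 without untreated replicate 2. Of 13 other DUSPs 2 were higher, Dusp3 (1.61 ± 0.22) and Dusp22 (0.81 ± 0.19), and Dusp18 was lower (-2.07 ± 0.31). The Dusp22 call was lost in 3 of 14 alternatives: library size alone (edgeR adjusted p = 0.0503), without untreated replicate 1 (0.15) and without untreated replicate 2 (0.197).

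Genes upstream of the immediate-early response were called in both directions. Of 28 MAP kinase cascade genes 3 were higher and 6 lower, with a median of 0.01. Among them Rps6ka1, an ERK-activated kinase, had 137, 196 and 209 CPM in TBI libraries and 412 and 430.4 CPM in untreated libraries (log2 -1.22 ± 0.18, edgeR adjusted p = 0.00185). Mapk9 (JNK2, -0.74 ± 0.14) and Mapk7 (ERK5, -0.95 ± 0.20) were lower and Mapkapk3 (0.72 ± 0.15), a kinase downstream of p38, was higher. Without either untreated library 1 cascade gene was called. Of 6 genes for serum response factor and its partners, Srf was called lower (-0.59 ± 0.17, edgeR adjusted p = 0.043), and this call was lost in 6 of 14 alternatives, among them each untreated library and TBI replicates 2 and 3 left out in turn.

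Of 6 EGR and NR4A corepressors and relatives none was called by edgeR, DESeq2 or limma-voom, and 1 had an unadjusted p under 0.05. The most expressed of them, Nab1, an EGR corepressor, and Rara, a retinoic acid receptor, had log2 fold changes of -0.01 ± 0.21 and -0.23 ± 0.20. Of 15 tested CCR4-NOT and AU-rich decay genes 4 were lower, the scaffold Cnot1 (-0.90 ± 0.20) and Cnot2 (-0.59 ± 0.14), Cnot8 (-0.68 ± 0.17) and Cnot6 (-0.61 ± 0.16), and all 4 calls were lost without untreated replicate 1 and without untreated replicate 2. Of 39 tested genes of the heat shock factor and chaperone list 2 were higher, Hspbp1 (0.75 ± 0.17) and Fkbp5 (0.78 ± 0.18), a glucocorticoid-responsive co-chaperone, and Hspa14 was lower (-0.54 ± 0.15), and these 3 calls were lost without untreated replicate 1 and without untreated replicate 2. Hsf1, the master regulator, averaged 40.5 ± 0.14 CPM in TBI libraries (SD, n = 3) and 38.4 ± 4.81 CPM in untreated libraries (SD, n = 2).

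**Figure D4:**
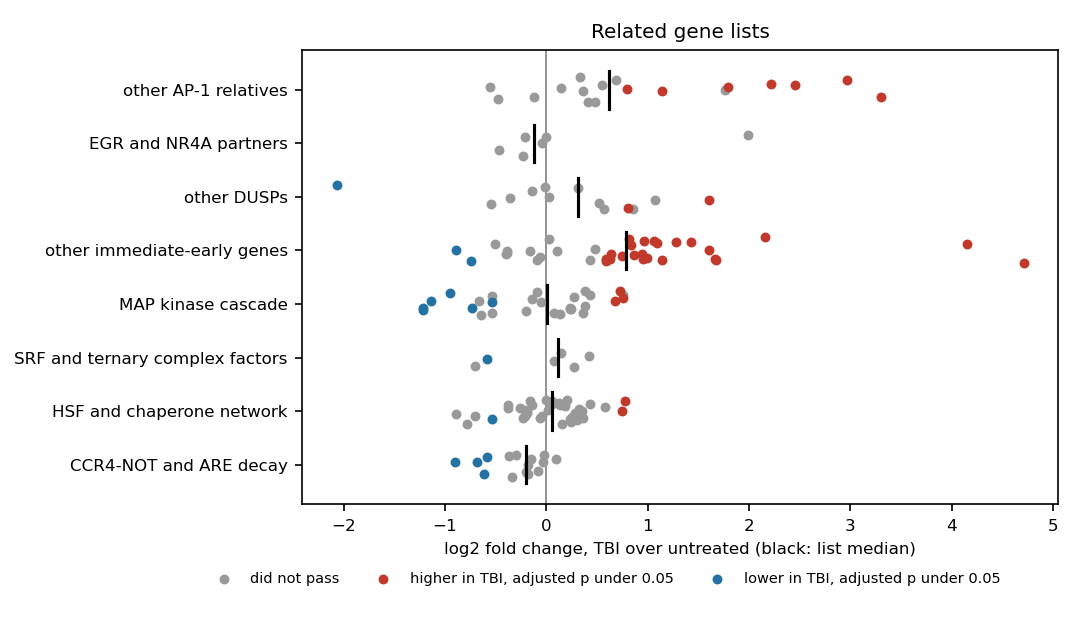
Each point is a gene of 1 of the 8 related lists (rows), placed by its log2 fold change of TBI over untreated, with colour giving the edgeR call and a black line the list's median. The medians of the further immediate-early genes (0.78) and AP-1 relatives (0.62) lie to the right, and that of the CCR4-NOT and AU-rich decay genes (-0.20) to the left of 0.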

How the data were processed

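Sorted thymic dendritic cells were profiled in 3 TBI and 2 untreated libraries made with the SMART-Seq v4 kit, per the labels' protocols. No molecular identifiers mark the PCR copies, so floors describe counting error alone. STAR 2.5.2a (alignment, mm10) and featureCounts 1.6.0 of Subread (reads per gene) are named in the submitters' processing notes. The authors deposited raw read counts, whole numbers listed by gene symbol. The annotation, strand setting and treatment of multiply mapped reads are not given in the sources used here. The treatment note names samples by another day, and day 4 was taken from titles and treatment tags. The table held 0 columns of other samples, and 23 symbols had been turned into dates, with 0.221% of counts, which stayed in totals and tests.

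The main test was edgeR 4.0.16 (R 4.3.3) on counts of all 5 libraries (TMM, filterByExpr with minimum count 10 and minimum total 15, quasi-likelihood F-test, group as the only term, Benjamini-Hochberg over 12046 genes at 0.05). Log2 fold changes are TBI minus untreated, values after ± are standard errors, and CPM use TMM-scaled library sizes, where a floor of 3 counts is 0.371 to 0.434 CPM. Lists were described by counts and medians, without a test. The fit was tested on simulated data with known changes. The 14 alternatives were 3 scalings, 2 filters, DESeq2 1.42.0, limma-voom (limma 3.58.1), edgeR with robust shrinkage, a block for the label's replicate number, and 5 fits that each left out 1 library.

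All members are reported, per library where they passed or led their family in level. From each related list up to 4 called genes with the smallest p are named, or the 2 most expressed where none passed. A gene that this rule names is not reported here. Genes named because few of a list moved one way, and Bag3, Hspb1, Dnaja4 and Hsf1, were chosen after their values were seen. Members and lists were chosen with earlier results of these data known. Exon lengths and shared 50-base exon windows came from GENCODE vM21 (GRCm38), matched by symbol, and promoters from RefSeq (GRCm38.p6). Python 3.11.15 and matplotlib 3.10.9 made the figures.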

Additional observations from a re-analysis of the deposited data

How the results depend on the processing

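The 15 called members were the same 15 under DESeq2 size factors, upper quartile scaling, no filter, the stricter filter, the DESeq2 Wald test, limma-voom, robust shrinkage and the replicate block. Scaling by library size alone moved the median of all genes to -0.23, the members' median to -0.128 and the counts of lower calls to 2129 genes and 7 members. Jund was lost there, and Dnajb1, Dusp5, Nr4a1 and Nr4a3 were gained. With each library left out in turn, 810 to 2148 genes were higher, 423 to 1780 were lower, 1 to 4 members were lower, and the members' median ran from 0.0786 to 0.243. Without untreated replicate 1, 9 of the 15 were called, and without untreated replicate 2, 10 were. Without TBI replicate 1 all 15 and also Fosb and Nr4a3 were called, and without TBI replicate 2 Klf2 was gained. Bag3, -0.14 in the fit of all libraries, ran from -0.786 without untreated replicate 1 to 1.07 without untreated replicate 2 (edgeR adjusted p = 0.0453). With the replicate block 1493 genes were higher and 1284 lower, and 12 members were higher and 3 lower, with a median of 0.0853. Deviations of same-numbered libraries from their group means had correlations of -0.016 and -0.00989 over 2 pairs. The deviations of 2 untreated libraries mirror each other, so these values are not independent and cannot decide whether the numbers pair the libraries. The main fit did not pair them. Only 2 untreated libraries were measured, which limits every value.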

Other observations

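Npas4, an immediate-early gene known mainly from neurons, had 0 counts in all 5 libraries. Phlda1, an immediate-early gene outside the 34, was named after its values were seen. It had 123, 90.0 and 102 CPM in TBI libraries and 12.4 and 34.6 CPM in untreated libraries (log2 2.16 ± 0.39, edgeR adjusted p = 0.00473), so untreated replicate 2 was 2.8 times untreated replicate 1, as in the heat shock genes. The value was 3.09 without untreated replicate 2 and 1.6 without untreated replicate 1, and it was called in both.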
